A study of Bos taurus with 16 samples.

Results

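Zinc finger genes with the prefix ZNF were followed through in vivo bovine pre-implantation development. Of 27393 loci in the deposited table, 317 carried a name of ZNF and a digit, and 179 of these, under 167 names, had a value above 0 in at least 8 of the 16 samples. The 179 loci, chosen by this detection of reads alone, are the members described here. The data are from single oocytes and embryos of cattle (Bos taurus) developed in vivo, with 2 samples at each of 8 stages, namely mature oocytes (MII), 2-, 4-, 8- and 16-cell embryos (2C, 4C, 8C and 16C), early morulae (EM), compact morulae (CM) and blastocysts (BL). No treatment or genotype was given for any stage, and donor breed and age were not given in the sources used here. The RNA of each sample was amplified in 2 rounds and sequenced on the SOLiD platform. Embryonic genome activation (EGA) of in vivo bovine embryos is placed between the 4- and 8-cell stages, so the 6 samples of MII, 2C and 4C were taken as before EGA and the 10 samples from 8C to BL as after EGA.

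ZNF proteins are mostly C2H2 zinc finger proteins, in which each finger folds around a zinc ion and arrays of fingers bind DNA. Many carry a KRAB domain, which recruits TRIM28 and through it the histone methyltransferase SETDB1, and this machinery is best known for silencing transposable elements in early embryos. Other ZNF proteins activate promoters, serve in co-repressor complexes without a KRAB domain, or work on RNA, ribosomes, SUMO or the mitotic spindle. Many KRAB genes lie in clusters of close paralogs, and how reads matching more than 1 paralog were assigned was not given in the sources used here. The split of such reads between loci is therefore uncertain for the whole family.

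Levels are given in CPM, the reads of a locus per 1000000 reads of the sample, which were recovered from the deposited values. Without gene lengths, CPM compares samples for a locus and not the molecules of 2 genes. Between 607672 and 3379426 reads were recovered per sample, with a median of 1347534, and a detection floor of 3 reads corresponded to 0.888 to 4.94 CPM. Floors and intervals cover counting error only. Over 6 oocyte markers, summed levels were 141 to 483 CPM before EGA and 1.96 to 74.1 CPM after it. Before EGA these sums were lowest in the oocytes themselves, at 140.9 and 202.5 CPM in MII. They were 430.5 and 483.2 CPM in 2C and 275.9 and 421.5 CPM in 4C. Of these markers, BMP15 lay in a run of 2578 consecutive loci without any read, where a 0 cannot be told apart from reads that were not counted. The markers of the embryo after EGA rose from 122 to 297 CPM to 3061 to 6610 CPM, and 4 trophectoderm markers summed to 1008 and 1089 CPM in the 2 BL samples. Of these, KRT8, KRT18 and GATA3 carried the BL reads, while the defining trophectoderm factor CDX2 had no read in either BL sample and a single read in the series, in an 8C sample. Over 6 cumulus or granulosa markers the sum was 78.4 to 321 CPM before and 0 to 31.7 CPM after EGA, with AMH at 0 in every sample. HAS2 had 68.7 to 298 CPM before EGA, most of that sum, and at most 18.3 CPM after it, with no read in EM, CM or BL. This sum moved with the period like the falling members, and its part in their falls was not tested. Blood and sperm markers stayed at or below 4.95 and 3.29 CPM, and the oviduct gene OVGP1 reached 75.2 CPM in a 2C sample.

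Members were 56.5% of the ZNF loci, while 39.1% of all loci had reads in as many samples. Reads were present in all 16 samples for 49 ZNF loci (15.5%), beside 16.1% of all loci. Among loci with reads in at least 8 samples, these shares were 27.4% of the members and 41.2% of all loci. Another 48 ZNF loci were at 0 in every sample, and 23 of these lay in that same run of loci without reads. The remaining 90 ZNF loci had reads in 1 to 7 samples. Among those 90, 18 had reads only before EGA and 31 only after it. A locus read only in the 6 samples before EGA could not become a member, so membership is tilted toward the 10 samples after EGA. In the test between the periods described below, all 317 ZNF loci gave the same counts as the members, 20 higher and 25 lower. The 10 members just inside the rule, with 8 samples, had 22 to 40 reads in all and mean levels of 0.835 to 2.11 CPM. The 10 ZNF loci just outside it, with 7 samples, had 13 to 134 reads and 0.661 to 6.16 CPM.

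The median member drew 145 reads. Fewer than 100 reads over the 16 samples were counted on 76 members (42.5%). A stage mean above 50 CPM was reached by 37 members (20.7%), and only ZNF79 and a ZNF208 locus exceeded 1000 CPM at a stage. Reads were found on 113 to 162 members per sample before EGA (median 145) and on 122 to 165 after EGA (median 152).

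The summed level of the 179 members rose between the 4- and 8-cell stages. It was 3834 ± 975 CPM before EGA (SD, n = 6) and 13886 ± 2518 CPM after EGA (SD, n = 10), a log2 ratio of 1.86. The lowest sum after EGA, 10567 CPM, was above the highest before it, 4865 CPM. A single locus carried this difference. Without ZNF79 the sums were 3660 ± 1065 CPM before and 3712 ± 793 CPM after EGA, a log2 ratio of 0.02. ZNF79 took 1.31 to 19.7% of the members' reads in the samples before EGA and 52.1 to 81.4% in those after it. No test was made on sums over the members, since the members were chosen with results of these data known.

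**Figure D1:**
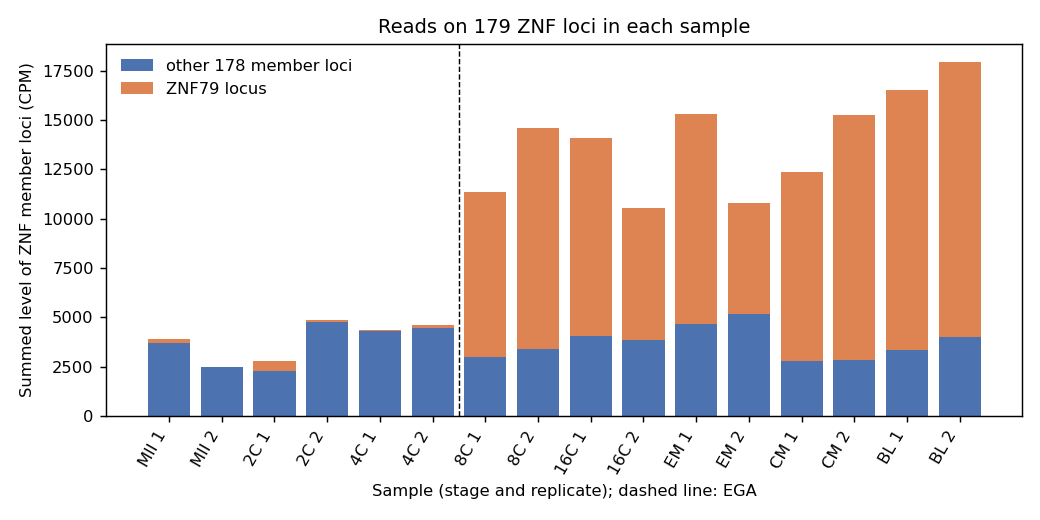
Summed level of the 179 ZNF loci in each of the 16 samples, in CPM on a linear axis from 0, split into ZNF79 (orange) and all other members (blue), with a dashed line at EGA. The blue parts cover a similar range on both sides of the line (2252 to 4752 CPM before, 2776 to 5176 CPM after), while ZNF79 forms more than 50% of every bar after EGA.

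Stage by stage, the sum without ZNF79 was highest in EM, at 4923 ± 357 CPM, and lowest in CM, at 2808 ± 45.2 CPM (SD, n = 2 each). In 4C it was 4386 ± 133 CPM and in 8C 3203 ± 283 CPM. The values of MII (3092 ± 884 CPM) and 2C (3502 ± 1767 CPM) had a spread between replicates that covered most of the other stages. Single members reached their highest stage mean most often in EM (47 members, 26.3%), BL (33, 18.4%), 2C (31, 17.3%) and 4C (25, 14%). MII was the stage of the highest level for 5 members (2.79%) and the stage of the lowest level for 74 (41.3%). Among the 10534 other loci with reads in as many samples, the highest mean fell in EM for 22.3%, in BL for 23.6%, in 2C for 15.7%, in 4C for 11.7% and in MII for 5.52%, and the lowest fell in MII for 42.3%. After EGA the peak was found for 118 members (65.9%) and for 67.1% of the other loci.

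**Figure D2:**
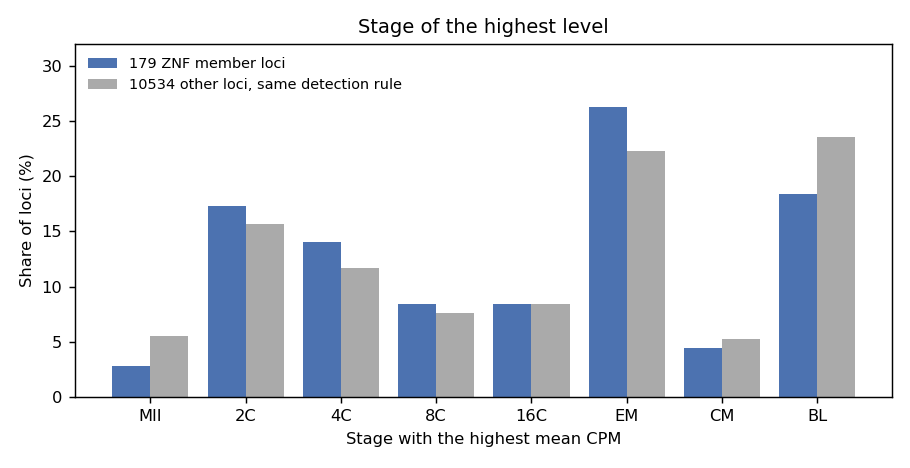
Share of loci (percent, linear axis) whose highest mean level fell at each of the 8 stages, for the 179 ZNF members (blue) and the 10534 other loci with values in at least 8 samples (grey). EM is the most frequent peak of the ZNF members, at 26.3%, and BL that of the other loci, at 23.6%.

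For a stage effect over the 8 stages, limma was run on the log2 of the deposited value plus 1, and p-values were adjusted by Benjamini-Hochberg over all 9670 loci with enough reads. Loci with few reads have understated changes on this scale. Enough reads for the test were present on 124 members, and 68 of them (54.8%) passed an adjusted p of 0.05, against 66.7% of all loci tested. The 55 members left out had at most 113 reads each, with a median of 38. Each stage rests on 2 single oocytes or embryos, and nothing in the labels says whether these shared a donor animal, so p-values measure the spread between such samples.

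Between the periods before and after EGA, 79 members could be tested among 6910 loci, and 45 of them (57%) passed the threshold in limma, where 66.8% of all loci passed. Higher after EGA were 20 members (25.3%, background 36.9%), and lower were 25 (31.6%, background 29.9%). Values of the 2 periods did not overlap for 23 members (29.1%, background 30%). The median log2 change was -0.48 over the members and 0.23 over all loci tested. Scaling to total reads moved the median of all loci to 0.67 and that of the members to -0.04, and the split of calls then became 26 higher and 19 lower, so the larger share of falls depends on the scaling. The 100 members not tested had at most 258 reads each. Each period pools several stages, so the spread in this test mixes differences between stages with those between samples. With period means taken in the model of 8 stages, 48 members passed.

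**Figure D3:**
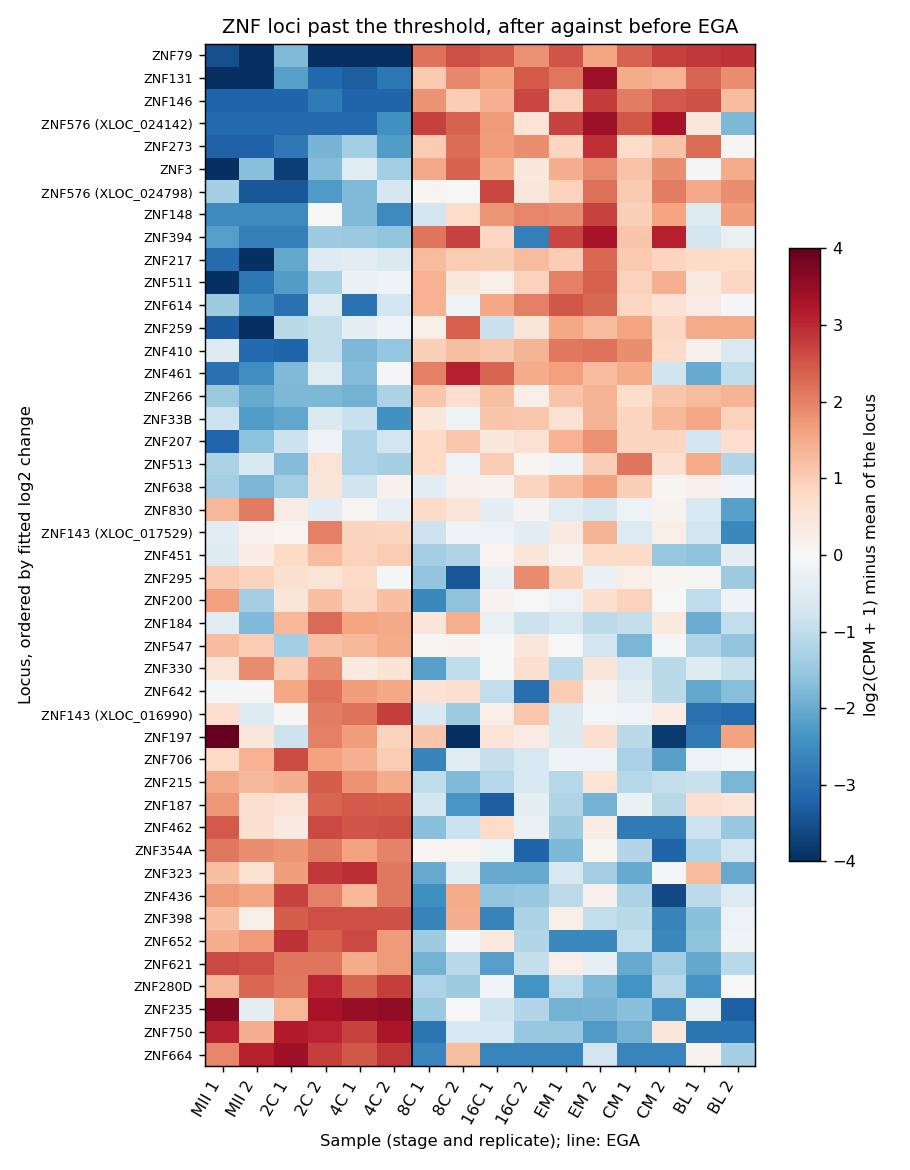
Levels of the 45 ZNF loci past the threshold after against before EGA, 1 row per locus and 1 column per sample, as log2(CPM + 1) minus the mean of the locus (red above, blue below, colours end at 4 in either direction). The 20 upper loci are mostly blue left of the line at EGA and the 25 lower loci mostly red, with single samples such as 16C replicate 2 in ZNF394 departing from their period.

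The locus named ZNF79, after a KRAB zinc finger gene, had the most reads of any member (110277). It showed the largest fitted rise on the log2 scale with a pseudocount of 1. Whether reads of an overlapping or neighbouring gene were counted at this locus was not tested. Its level before EGA was 32.9 CPM at the lowest, 110 CPM at the median and 553 CPM at the highest. After EGA the corresponding values were 5632, 10333 and 13979 CPM. Both groups were far apart, and no sample after EGA fell below 10 times the highest sample before it. In limma the log2 change was 5.89 ± 0.46 (SE), with an adjusted p of 6.9e-10. The rise was present by 8C, with 75.0 and 106 CPM in 4C samples and 8374 and 11181 CPM in 8C samples. That step had a log2 change of 6.74 ± 0.81 (adjusted p 4.2e-05 in limma). From 8C to BL none of the tested steps passed the threshold. Both BL samples, with 13182 and 13979 CPM, lay above both 8C samples, and BL against 8C was not tested.

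Further genes went from almost no reads to clear levels, and for ZNF146 and ZNF576 the ratios of pooled reads were higher than the fitted changes. ZNF131, which carries a BTB domain beside its zinc fingers, had no read in either MII sample and at most 2.66 CPM before EGA, with a median of 0.791 CPM. After EGA it had 33.4 to 176 CPM, with a median of 60.1 CPM and the highest value in EM replicate 2. The log2 change was 5.24 ± 0.38 (adjusted p 3.4e-10, limma). ZNF146, a gene with a short array of fingers and no KRAB domain, had 1 read at its locus XLOC_024708 before EGA, in 2C replicate 2, and 415 reads after it. Its levels after EGA were 16.3 to 62.6 CPM, with a median of 33.9 CPM. From pooled reads, the ratio was 477, with a 95% interval of 85.2 to 18902 from counting alone (log2 change 5.14 ± 0.39, adjusted p 6e-10, limma). The second ZNF146 locus, XLOC_024056, was read in 9 samples after EGA (78 reads) and in none before.

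ZNF576 was annotated at 2 loci, and both rose. XLOC_024142 had 1 read before EGA, in 4C replicate 2, and 539 reads after it, at 1.47 to 91.9 CPM with a median of 45.2 CPM. The pooled ratio was 620, with a 95% interval of 111 to 24536 from counting (log2 change 4.88 ± 0.65, adjusted p 1.2e-06, limma). XLOC_024798 had 0 to 5.53 CPM before and 9.62 to 65.7 CPM after EGA (log2 change 3.26 ± 0.56, adjusted p 2.9e-05, limma). In BL the loci separated, with 10.8 and 1.47 CPM at XLOC_024142 and 28.5 and 36.7 CPM at XLOC_024798. Reads could be divided between such namesakes by the counting. Of all members, 28 carry a name with more than 1 ZNF locus in the table.

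ZNF273, a KRAB zinc finger gene, had 1.31 to 7.64 CPM before EGA (median 2.84) and 22.0 to 167 CPM after it (median 58.7). The groups did not overlap, and the log2 change was 3.63 ± 0.42 (adjusted p 1.7e-07, limma). ZNF3 had 0 to 15.3 CPM before EGA (median 6.03) and 20.6 to 117 CPM after it (median 62.6), with a log2 change of 3.36 ± 0.59 (adjusted p 4.2e-05, limma). ZNF48, picked after its values were seen, was the only member with no read in any of the 6 samples before EGA and reads in all 10 after it, at 1.65 to 27.1 CPM.

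The 6 largest fitted falls without overlap were of ZNF664, ZNF750, ZNF235, ZNF280D, ZNF621 and ZNF652. ZNF664 had 23.0 to 65.2 CPM before EGA (median 42.8) and 0 to 13.5 CPM after it (median 0), and 6 of the 10 samples after EGA had no read. The log2 change was -5.03 ± 0.60 (adjusted p 3.1e-07, limma). ZNF750, a regulator of epidermal differentiation, had 19.7 to 70.7 CPM before EGA (median 61.8) and 0 to 9.28 CPM after it (median 1.33), with neither BL sample holding a read. The log2 change was -4.98 ± 0.55 (adjusted p 1e-07, limma).

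Oocyte and embryo replicates differed widely at ZNF235, a KRAB gene, with 121 and 6.57 CPM in MII and 23.3 and 93.5 CPM in 2C. After EGA it had 0 to 8.66 CPM (median 2.26), so the 2 periods overlapped in CPM but not on the deposited scale. Its log2 change was -4.48 ± 0.61 (adjusted p 1.8e-06, limma). For ZNF280D the range was 12.4 to 42.6 CPM before and 0 to 4.40 CPM after EGA (log2 change -4.20 ± 0.48, adjusted p 1.7e-07, limma). ZNF621, another KRAB gene, went from 22.2 to 50.5 CPM down to 0.773 to 8.99 CPM (log2 change -3.92 ± 0.45, adjusted p 1.6e-07, limma). ZNF652, a partner of the co-repressor CBFA2T3, had 15.5 to 43.3 CPM before EGA and 0 to 6.95 CPM after it, and no read in either EM sample (log2 change -3.88 ± 0.53, adjusted p 1.8e-06, limma). All 12 of these rises and falls passed the threshold in each of 26 other settings.

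**Figure D4:**
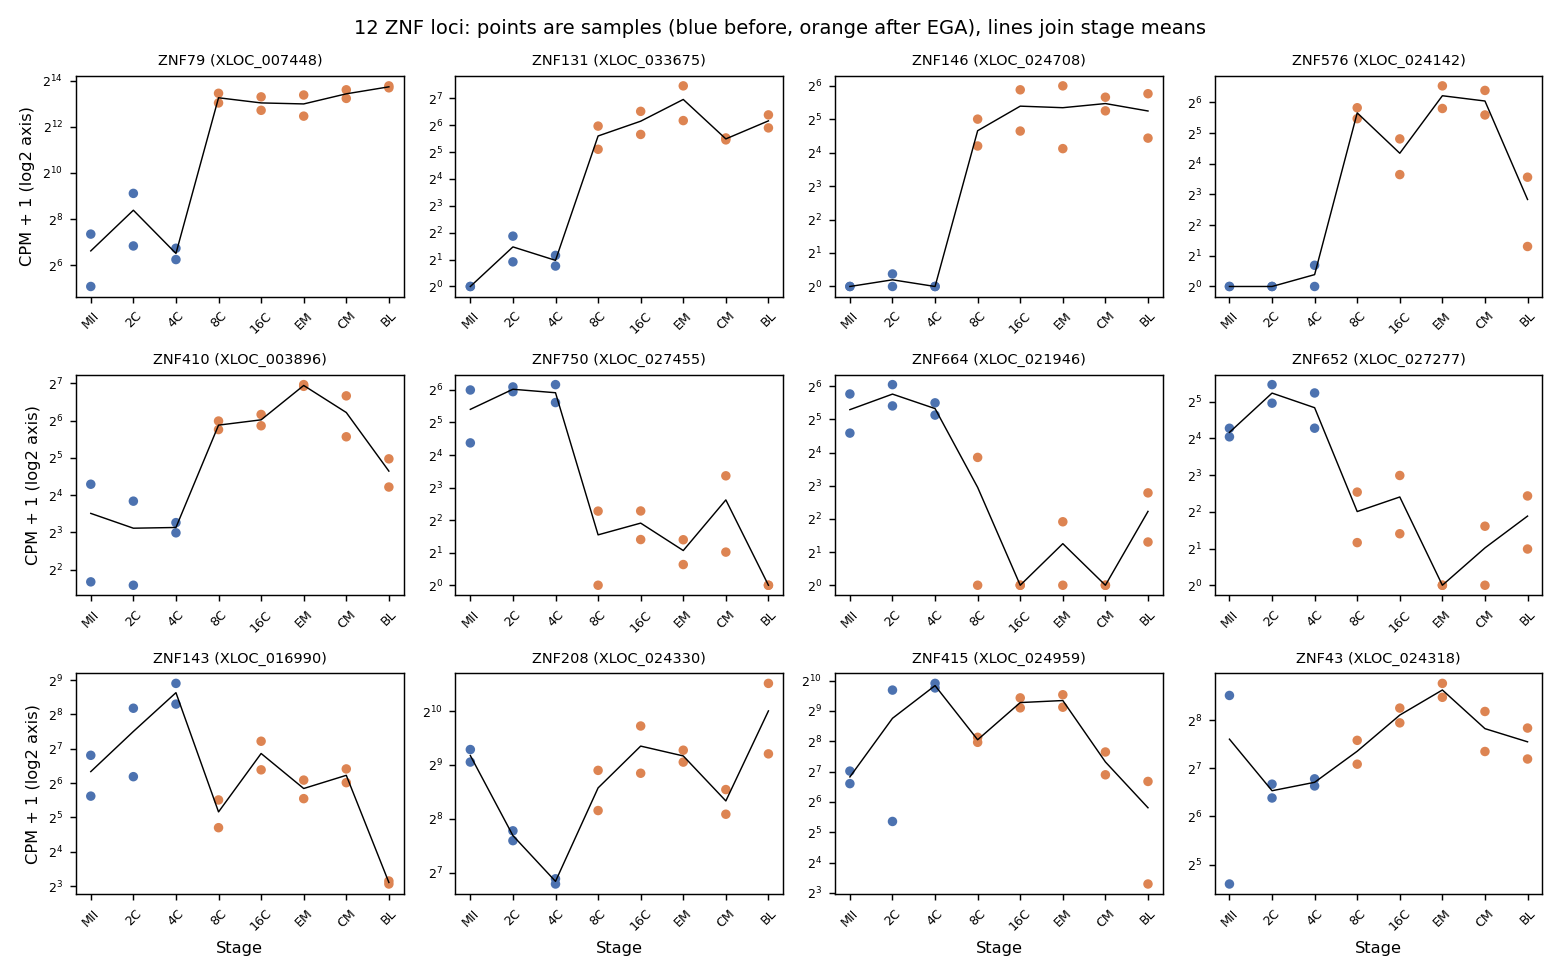
Levels of 12 ZNF loci by stage, as CPM + 1 on a log2 axis that differs between panels, with 1 point per sample (blue before, orange after EGA) and lines through the stage means. ZNF79, ZNF131, ZNF146 and ZNF576 step up between 4C and 8C, ZNF750, ZNF664 and ZNF652 step down, and ZNF208 (110 and 117 CPM in 4C) dips before EGA.

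Members with a known role outside KRAB silencing moved in both directions. Of 10 listed genes acting on RNA, ribosomes, SUMO or the spindle, 6 were tested between the periods, and 3 rose and 2 fell. For this and the lists that follow, 36.9% of all loci tested rose and 29.9% fell, and the lists were not tested against those shares. ZNF207, also named BuGZ, which supports spindle assembly and kinetochore attachment, had 2.66 to 29.3 CPM before EGA (median 15.2) and 18.7 to 118 CPM after it (median 58.1). Only BL replicate 1, with 18.7 CPM, lay within the range before EGA. The log2 change was 1.65 ± 0.40 (adjusted p 0.00107, limma). ZNF259, also named ZPR1, which binds the translation factor eEF1A, rose from 0 to 19.7 CPM up to 11.6 to 121 CPM (log2 change 2.59 ± 0.60, adjusted p 0.00072, limma). MII samples had 1.33 and 0 CPM and 4C samples 16.7 and 19.7 CPM, from 3 and 56 reads. That step had a ratio of 27.6 with a 95% counting interval of 8.98 to 138 (adjusted p 0.0109, limma), and the call was lost without MII replicate 2, 4C replicate 1 or 4C replicate 2 (adjusted p 0.102, 0.0905 and 0.0803) and with both stages alone (0.14).

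ZNF638, a splicing regulator, had 10.1 to 54.2 CPM before and 28.5 to 117 CPM after EGA, with a log2 change of 0.80 ± 0.35 that barely passed (adjusted p 0.047, limma). That call was lost in 15 of 26 other settings, among them edgeR (adjusted p 0.206), and without 10 of the 16 samples in turn, with the highest adjusted p among those, 0.135, without 2C replicate 1. ZNF706, a small zinc finger protein, had 50.5 to 184 CPM before EGA and 3.71 to 27.9 CPM after it, without overlap (log2 change -2.85 ± 0.39, adjusted p 2e-06, limma). ZNF451, a SUMO ligase, went from 5.32 to 20.4 CPM to 1.96 to 14.4 CPM (log2 change -1.48 ± 0.44, adjusted p 0.00545, limma), and was not past the threshold when scaled to total reads (adjusted p 0.0759). ZNF593, which acts in the making of ribosomes, had too few reads for the test of periods, with 8 reads before EGA and 87 after it, but passed the test of stages (adjusted p 0.00191, limma), and its highest values were 27.5 and 11.7 CPM in BL.

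A list of 14 genes held partners of LSD1, G9a, NuRD or ZMYND8 and also ZNF410, known as an activator of the gene of CHD4 and not as a partner. Of the list, 5 were tested between the periods, and ZNF217 and ZNF410 rose and ZNF462 fell. ZNF217, a component of complexes of LSD1 and CoREST, had 0 to 16.7 CPM before and 38.2 to 114 CPM after EGA, without overlap (log2 change 2.79 ± 0.53, adjusted p 0.0001, limma). It was also higher in 4C than in MII, with 16.7 and 14.7 CPM against 1.77 and 0 CPM (adjusted p 0.0158, limma), a call lost without MII replicate 2, 4C replicate 1 or 4C replicate 2 (adjusted p 0.148, 0.118 and 0.0922) and with both stages alone (0.179). ZNF410 had 2.00 to 18.6 CPM before EGA (median 7.77) and 17.6 to 124 CPM after it (median 59.8). Its highest values were 120 and 124 CPM in EM, and BL replicate 2, with 17.6 CPM, was the only sample after EGA within the earlier range (log2 change 2.57 ± 0.48, adjusted p 8.8e-05, limma). CHD4, the NuRD ATPase, had 131 to 426 CPM before and 88.1 to 245 CPM after EGA (log2 change -1.24 ± 0.38, adjusted p 0.0066, limma), and did not pass when scaled to total reads (adjusted p 0.0577).

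ZNF462 had 7.99 to 43.2 CPM before and 0 to 10.8 CPM after EGA, with no read in CM (log2 change -3.51 ± 0.58, adjusted p 2.1e-05, limma). ZNF532, a partner of ZMYND8, varied with stage (adjusted p 0.0248, limma), and its levels were 326 and 250 CPM in BL, above the 17.2 to 95.3 CPM of all other samples after EGA. Its difference between the periods, a log2 change of 1.62 ± 0.86, did not pass the threshold (adjusted p 0.0996, limma). ZNF518A, a partner of G9a, had 2.19 to 18.6 CPM before and 1.03 to 18.3 CPM after EGA and did not pass (adjusted p 0.255, limma). Of the rest of this list, 6 loci had 1 to 102 reads and were not tested between the periods, and ZNF516 and ZNF281 were at 0 in every sample, ZNF281 within the run of loci without reads.

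Promoter-binding activators had 4 tested loci, of which 1 rose and 2 fell. ZNF143, which binds the promoters of many housekeeping genes, was annotated at 2 loci. At XLOC_016990 it had 48.2 to 479 CPM before EGA (median 200) and 7.34 to 148 CPM after it (median 54.7), with the highest values of 315 and 479 CPM in 4C and the lowest of 7.86 and 7.34 CPM in BL. The periods overlapped, and the log2 change was -2.41 ± 0.60 (adjusted p 0.00139, limma). XLOC_017529 had 9.75 to 59.2 CPM before and 1.47 to 37.1 CPM after EGA (log2 change -1.41 ± 0.47, adjusted p 0.0117, limma), and lost its call when scaled to total reads (adjusted p 0.113). ZNF148, which binds GC-rich promoter elements, had reads in 2 of 6 samples before EGA, at 4.73 and 0.694 CPM, and in all 10 after it, at 2.47 to 36.5 CPM (log2 change 3.23 ± 0.54, adjusted p 2.5e-05, limma). ZNF445, which maintains imprints together with ZFP57, was no member and had 24 reads in 5 samples.

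The KRAB machinery itself showed no single direction. Of 27 listed symbols of this machinery, heterochromatin and maintenance of DNA methylation, of which FAM208A and TASOR name the same gene, 24 were matched and 17 tested between the periods, and 5 were higher and 5 lower after EGA in limma, with a median log2 change of -0.11. TRIM28, the cofactor that KRAB domains bind, had 11.0 to 108 CPM before and 35.5 to 380 CPM after EGA, and this difference did not pass the threshold (log2 change 0.98 ± 0.55, adjusted p 0.122, limma), although TRIM28 varied over the 8 stages (adjusted p 0.00468, limma). It rose from 40.0 and 54.3 CPM in EM to 380 and 302 CPM in BL (log2 change 3.20 ± 0.68, adjusted p 0.00974, limma), a call lost without any 1 of these 4 samples (adjusted p 0.0696 to 0.0817). SETDB1 also varied with stage (adjusted p 0.00141, limma), but its log2 change between the periods was -0.62 ± 0.61 (adjusted p 0.38, limma). It fell earlier, from 1424 and 1394 CPM in MII to 132 and 230 CPM in 4C (log2 change -3.77 ± 0.65, adjusted p 0.00667, limma), a call lost without 4C replicate 1 (adjusted p 0.0905) and with both stages alone (0.0572). Its binding partner ATF7IP rose from 0 to 2.78 CPM up to 7.34 to 60.6 CPM (log2 change 3.11 ± 0.51, adjusted p 2e-05, limma). Also higher were MTA2 (log2 change 4.59), HDAC2 (2.16), HDAC1 (1.96) and SMARCAD1 (1.45), and besides CHD4 the lower ones were UHRF1 (-6.82), DNMT1 (-3.35), FAM208A (-2.37) and MORC3 (-1.69). Of the HP1 genes, CBX1 had 19 reads in 7 samples, and CBX3 lay within the run of loci without reads. MORC3 missed the threshold when scaled to total reads (adjusted p 0.14) and without MII replicate 2, 2C replicate 1 or CM replicate 2 (0.0774, 0.078 and 0.0503), and with the 8C samples left out (0.0641).

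Other C2H2 families were counted for comparison with the same test. Of ZBTB loci, 11 were tested, 4 rose and 6 fell. Of PRDM loci, 7 were tested, 2 rose and 4 fell. ZFP loci gave 2 rises and 3 falls among 7 tested. In ZSCAN 1 of 2 tested loci rose, and in ZKSCAN 1 of 2 fell. No difference between these families and the ZNF members was tested.

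Before EGA, the step from MII to 4C asked which members change while little embryonic transcription takes place. Of 124 members tested, 13 passed the threshold in limma (10.5%, background 8.68%), 8 higher in 4C (6.45%, background 6.48%) and 5 lower (4.03%, background 2.19%). Scaled to total reads, 13 were higher and 2 lower, and scaled by TMM factors 9 were higher and 3 lower. The count was 1 without MII replicate 2, 0 without either 4C sample, and 8 without either 16C or either EM sample. Where 1 sample of a compared stage was left out, here and at the later steps, the other was assumed to vary like the samples of the other stages. With edgeR 6 members passed, 3 in each direction.

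ZNF641 had 21.3 and 0.438 CPM in MII and 112 and 184 CPM in 4C (log2 change 4.31 ± 1.21, adjusted p 0.0397, limma), with the 2 oocytes far apart. The call was absent in 13 of 25 other settings, among them those without MII replicate 2 (adjusted p 0.394), without either 4C sample, and without any single 16C, EM or BL sample. With single samples left out its log2 change ranged from 2.08 to 6.54. The ZNF415 locus XLOC_024311 had no read in MII and 19.4 and 6.76 CPM in 4C, at least 19.2-fold higher against a floor of 3 reads over both oocytes (adjusted p 0.0459, limma), and this call was absent in 14 of 25 settings. ZNF583, a KRAB gene, had 0.886 and 0 CPM in MII, from 2 reads, and 14.6 and 20.9 CPM in 4C. The pooled ratio was 40.7, with a 95% counting interval of 10.7 to 344 (adjusted p 0.0295, limma). This call was absent in 6 of 25 settings, among them edgeR (adjusted p 0.0692), both stages alone (0.116) and the fits without MII replicate 2 or either 4C sample (0.134 to 0.222).

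Both well-read loci named ZNF208, a KRAB gene with a long finger array, fell between MII and 4C and were higher again in 8C. XLOC_024330 had 623 and 530 CPM in MII, 192 and 218 CPM in 2C, 110 and 117 CPM in 4C, and 476 and 284 CPM in 8C. The step from MII to 4C was -3.10 ± 0.61 on the log2 scale (adjusted p 0.0106, limma) and that from 4C to 8C was 1.68 ± 0.61 (adjusted p 0.0426, limma). XLOC_024998 had 35.0 and 36.4 CPM in MII, 9.03 and 6.76 CPM in 4C, and 37.1 and 82.7 CPM in 8C. Its steps were -2.84 ± 0.54 (adjusted p 0.00925, limma) and 2.70 ± 0.54 (adjusted p 0.00169, limma). The rise at XLOC_024330 was not called without 4C replicate 1, 4C replicate 2 or 8C replicate 1 (adjusted p 0.154, 0.135 and 0.25) or without either EM sample (0.052), with the replicate block (0.0503), with no filter (0.0733) or with both stages alone (0.0904). The rise at XLOC_024998 and its fall before it were not called with both stages alone (adjusted p 0.054 and 0.0661). Both falls missed the threshold without MII replicate 2 (adjusted p 0.065 for each) and without either 4C sample, while the log2 changes with single samples left out stayed between -3.14 and -3.05 for XLOC_024330 and between -3.03 and -2.64 for XLOC_024998. The fall of ZNF177, from 70.5 and 74.1 CPM to 15.3 and 22.7 CPM (log2 change -2.67 ± 0.77, adjusted p 0.046, limma), was absent in 16 of 25 settings.

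Between 4C and 8C, the step that spans EGA, 41 of 124 members passed the threshold in limma (33.1%, background 36.8%), 18 higher (14.5%, background 17.7%) and 23 lower (18.5%, background 19.1%). The excess of falls depended on the test, since edgeR gave 15 higher and 14 lower and DESeq2 15 higher and 13 lower. The median log2 change was -0.61 over the members and -0.08 over all loci tested. The count of 41 was 20 without 4C replicate 1, 22 without 4C replicate 2 and 27 without 8C replicate 1. Beside ZNF79, ZNF576 at XLOC_024142 rose from 0 and 0.615 CPM to 55.7 and 43.3 CPM (1 read against 90, ratio 149 with a 95% counting interval of 26.1 to 5966, adjusted p 0.00028, limma). ZNF146 at XLOC_024708 had no read in 4C and 30.9 and 17.3 CPM in 8C, at least 23.8-fold higher against 3 reads over both 4C samples (adjusted p 0.0003, limma).

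ZNF750 fell from 47.9 and 70.7 CPM in 4C to 0 and 3.85 CPM in 8C (log2 change -5.05 ± 0.99, adjusted p 0.00148, limma), and missed the threshold with both stages alone (adjusted p 0.062). ZNF235 fell from 108 and 112 CPM to 2.47 and 8.66 CPM (log2 change -4.35 ± 1.18, adjusted p 0.0103, limma), and missed the threshold without 4C replicate 1, 4C replicate 2 or 8C replicate 1 (adjusted p 0.0559, 0.0589 and 0.0719). ZNF323, a gene of the SCAN zinc finger group now named ZSCAN31, had 30.6 and 16.6 CPM in 4C and 0 and 1.92 CPM in 8C, from 71 and 2 reads. It was lower by a ratio of 21.4, with a 95% counting interval of 5.71 to 180 (adjusted p 0.00891, limma), and missed the threshold without 4C replicate 1 or 8C replicate 1 (adjusted p 0.0699 and 0.0753) and with both stages alone (0.0675).

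No member passed the threshold between 8C and EM in limma, among 124 tested (background 0.486%), nor in edgeR or DESeq2. At an unadjusted p of 0.05 there were 9 such members (7.26%, background 13.7%). Without 8C replicate 1, 1 member passed.

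Between EM and BL 4 of 124 members passed in limma (3.23%, background 7.15%), 1 higher in BL (0.806%, background 4.67%) and 3 lower (2.42%, background 2.47%). Scaled to total reads, 1 was higher and 6 lower. The count was 0 without EM replicate 1, EM replicate 2 or BL replicate 2, 2 without BL replicate 1 or either 4C sample, and 8 without either 8C sample, and edgeR gave 0. ZNF627, a KRAB gene, had 6.54 and 2.21 CPM in EM and 29.5 and 41.1 CPM in BL, its highest values of the series (log2 change 3.14 ± 0.79, adjusted p 0.0261, limma). ZNF415 at XLOC_024959 had 740 and 556 CPM in EM and 101 and 8.81 CPM in BL (log2 change -3.98 ± 1.12, adjusted p 0.0439, limma), with the 2 blastocysts far apart. ZNF576 at XLOC_024142 went from 54.8 and 91.9 CPM to 10.8 and 1.47 CPM (log2 change -3.40 ± 0.86, adjusted p 0.0255, limma). ZNF143 at XLOC_016990 went from 45.8 and 67.0 CPM to 7.86 and 7.34 CPM (log2 change -2.36 ± 0.66, adjusted p 0.0422, limma). Of other settings, 6 of 25 ended the call of ZNF627, 16 that of ZNF415, 5 that of ZNF576 and 12 that of ZNF143, and each of these calls was lost without EM replicate 1, EM replicate 2 or BL replicate 2. With single samples left out the log2 changes ranged from -5.64 to -2.31 for ZNF415, from -4.51 to -2.28 for ZNF576, from -2.42 to -2.30 for ZNF143 and from 2.39 to 3.88 for ZNF627. Trophectoderm markers summed to 1008 and 1089 CPM in BL and to at most 257 CPM in other samples, with CDX2 without a read in BL, and the part of that cell type in these changes was not tested.

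ZNF415 at XLOC_024959 had the highest mean CPM of any member in 2C and 4C, with 39.9 and 823 CPM in 2C and 959 and 864 CPM in 4C, after 96.2 and 128 CPM in MII. In 2C this came from replicate 2 alone, since in replicate 1 ZNF79 had 553 CPM. Its step from MII to 4C did not pass (log2 change 2.27 ± 1.12, adjusted p 0.22, limma). At further members with many reads, the 2 samples of a stage could differ widely. ZNF547 at XLOC_024416 had 94.5 to 686 CPM before EGA (median 566) and 67.7 to 334 CPM after it (median 241). Its lowest value before EGA was that of 2C replicate 1 (log2 change -1.78 ± 0.51, adjusted p 0.00414, limma). The second ZNF547 locus, XLOC_025071, did not pass between the periods (log2 change -0.43 ± 0.46, adjusted p 0.416, limma). ZNF43, ZNF318 and ZNF277 had the highest p-values of the stage effect among members of at least 20 CPM (adjusted p 0.577, 0.553 and 0.324, limma). ZNF43, a KRAB gene, had 364 and 23.2 CPM in the 2 MII oocytes, while its samples after EGA ranged from 135 to 434 CPM. ZNF318 ranged from 3.07 to 46.2 CPM before and 5.87 to 44.9 CPM after EGA, and ZNF277 from 13.3 to 183 CPM and from 29.6 to 195 CPM. A missed threshold at 2 samples per stage does not show that these levels were steady.

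Neighbouring ZNF genes were examined in RefSeq's list of bovine genes on ARS-UCD2.0, from which names and order alone were taken. Of 167 member names, 152 were placed, 145 by symbol and 7 by synonym. With neighbours at most 3 places apart in the order of protein-coding genes, 53 names fell into 19 runs of 2 to 5 and 99 stood alone. Of 19 names tested in runs, 5 were higher and 7 lower after EGA, and of 47 tested names alone, 13 were higher and 17 lower (background of all loci 36.9% higher and 29.9% lower). Only 2 runs held more than 1 called name, and each ran in 1 direction. ZNF146 and ZNF461 (2.40 on the log2 scale) rose within a run that also held ZNF567 and ZNF382. The other run held ZNF323 and ZNF187 alone, 2 SCAN zinc finger genes, and both fell (-3.58 and -3.22).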

How the data were processed

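Single bovine oocytes and embryos were sequenced after RNA amplification, 2 at each of 8 stages. Per the labels, cutadapt, FastQC, TopHat, Cufflinks and HTSeq were used, and genome build and rule for multiply mapped reads were not given in the sources used here. The deposited signal is read counts per locus that the authors divided by 1 size factor per sample. Dividing by the smallest value above 0 gave whole numbers in every sample (100% within 0.01), so reads were recovered and CPM computed. Gene lengths were lacking, so TPM was not computed.

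The members and gene lists were chosen with earlier results of these data known. Differences were tested by limma 3.58.1 in R 4.3.3 with a trend, on the log2 of the deposited value plus a pseudocount of 1, at a Benjamini-Hochberg adjusted p of 0.05 over loci kept by edgeR's filterByExpr (9670 for stages, 6910 for periods). Stage steps are contrasts in 1 model of all 16 samples. Values set beside members are mean ± SD, and log2 changes carry an SE. Ratios from few reads carry exact binomial intervals of 95% on pooled reads.

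Named loci are the 5 with the highest mean, the highest at each stage, the 6 largest rises and falls between periods and the 3 largest per step among called loci without overlap, the 3 of at least 20 CPM with the highest stage p, and called loci with listed roles. ZNF48, ZNF187, ZNF394, ZNF461, ZNF518A and the second loci of ZNF146 and ZNF576 were added after their values were seen. Reads were also simulated with the same mean per locus in all samples, apart from the changed loci, and a fixed dispersion. In these, limma recovered 100% of loci with 8-fold changes between periods (6910 loci) and 75% between 4C and 8C (9670 loci). Each comparison had 9 false calls. Stages within a period did not differ in the simulation, so these shares do not give the recovery in the real samples. Alternatives were other scalings, pseudocounts, no filter, edgeR 4.0.16, DESeq2 1.42.0, the replicate block, samples left out, 2 stages alone and other sets of loci. Sequence features of the proteins and promoters were not analysed here.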

Additional observations from a re-analysis of the deposited data

Results flagged for a closer look

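Within the 6 samples before or the 10 samples after EGA, 10 of 78 groups of values held a sample whose gap to the others exceeded the Dixon limit at 95%. All 10 were groups of named loci. Where all values come from 1 distribution, chance passes this limit in about 1 group of 20. That rate cannot be applied here, since each group pools stages that may differ, and a single read against samples at 0 passes the limit by construction. In 2C replicate 1, ZNF547 at XLOC_024416 had 94.5 CPM (others before EGA 497 to 686) and ZNF277 had 13.3 CPM (others 81.1 to 183). In 2C replicate 2, ZNF148 had 4.73 CPM (others 0 to 0.694), and ZNF146 at XLOC_024708 had 0.296 CPM, a single read, with 0 in the others. ZNF576 at XLOC_024142 likewise had its single read before EGA in 4C replicate 2, at 0.615 CPM. The MII oocytes gave ZNF43 with 364 CPM in replicate 1 (others before EGA 23.2 to 109) and ZNF641 with 0.438 CPM in replicate 2 (others 21.3 to 184). Blastocyst replicate 2 was lowest after EGA at ZNF415 (XLOC_024959), with 8.81 CPM (others 101 to 740), and at ZNF143 (XLOC_017529), with 1.47 CPM from 1 read (others 7.42 to 37.1). Blastocyst replicate 1 was lowest at ZNF207, with 18.7 CPM (others 43.3 to 118).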

How the results depend on the processing

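Depth limited the tests, since 100 of 179 members could not be tested between the periods and 55 not between stages. The count of called members between periods, 45 in the reported fit, was 71 with no filter and 20 among members read in all 16 samples, and 42 to 48 when each sample was left out in turn. For the stage effect it was 68, 21 among members read in all samples, and 61 to 77 with samples left out. For 4C against MII (13) it was 6 with no filter, 6 in edgeR, 2 from both stages alone, 7 among members read in all samples, and 0 to 16 with samples left out. For 8C against 4C (41) it was 17 from both stages alone, 14 among members read in all samples, and 20 to 43. For EM against 8C (0) it was 1 when scaled to total reads, and 0 to 1. For BL against EM (4) it was 7 when scaled to total reads, 7 with a pseudocount of 5, 0 in edgeR, 1 from both stages alone, and 0 to 8. The log2 ratio of the summed level, 1.86 in CPM, was 1.41 on deposited values and 0.0204 without ZNF79. The causes of these moves were not tested, apart from the smaller sets of loci or samples by construction. None of the named changes reversed, and 23 of 40 passed the threshold in every setting.

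Replicate numbers did not pair the samples, since of 28 correlations of deviations between stages (-0.257 to 0.134) only 1 exceeded 0.1. With the replicate block the counts were 67 for the stage effect, 43 between periods, 12 for 4C against MII, 38 for 8C against 4C, 0 for EM against 8C and 4 for BL against EM.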
